A study of Mus musculus with 10 samples.

Results

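Among stretches of the genome that sperm had nearly fully methylated, a set was taken whose methylation averaged below 40% over the zygote libraries. The genome was divided into 100-bp tiles from base 1 of each chromosome on, and methylated and unmethylated counts were summed over the cytosine positions of each tile and library. A tile belonged to the set when it lay on an autosome, had at least 10 counts in both sperm libraries and at least 5 in each of the 8 embryo libraries, was at 80% or more in both sperm libraries, and had a mean below 40% over the 4 zygote libraries of both genotypes. The set held 416 of the 4778 sperm-methylated tiles (8.71%) and of the 14506 tiles that passed the count minimums (2.87%). All 416 passed these minimums by construction. The sperm and zygote values chose them, so those levels are given as a description and without a test. The blastocyst values were not used except for the count minimum.

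The assay was reduced representation bisulfite sequencing, in which MspI digestion enriches fragments rich in CpG sites. The 10 libraries form 5 groups of 2 biological duplicates: WT sperm of adult CAST/EiJ males, and WT and CKO embryos of C57BL/6J x CAST/EiJ origin at the zygote and blastocyst stages. CKO is the title word for embryos whose genotype label is maternal Tet3 KO. All embryos came from eggs of superovulated females aged 7 to 10 weeks, fertilised in vitro with CAST/EiJ sperm, and were collected 13 h (zygotes) or 96 h (blastocysts) after fertilisation. Each library pooled 40 to 50 zygotes or 4 blastocysts. How Tet3 was deleted in the egg is not given in the sources used here. The deposited tables of all 10 libraries carry the word CAST, but the sources do not say whether embryo reads were assigned to a parental allele. A low tile on the paternal allele and a mixture with an unmethylated maternal allele therefore cannot be told apart. Total counts were 2535229 and 2315949 in the sperm libraries, 1233982 to 1508297 in zygotes and 1005492 to 1093843 in blastocysts. The tiles are given in mm9 coordinates as deposited and were not assigned to genes, since no annotation of that build was used here. In pooled embryos, a level of 40% from partly methylated molecules and one from a mixture of methylated and unmethylated molecules cannot be told apart either.

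Sperm DNA is highly methylated, and after fertilisation the paternal genome loses much of that methylation before and during the cleavage divisions. Tet3, a dioxygenase supplied by the egg, oxidises 5-methylcytosine to 5-hydroxymethylcytosine and further products in the zygote, and the oxidised bases are then lost by replication or repair. Bisulfite treatment does not separate 5-methylcytosine from 5-hydroxymethylcytosine, so a level given here is the sum of both. Replication without maintenance also lowers methylation passively up to the blastocyst. Tiles already low at 13 h would be candidates for early loss, and the question was how they compare between genotypes and where they stand in blastocysts.

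The 416 tiles were a tail of a continuous distribution and no separate class. The zygote mean had a median of 63.0% over the 4778 sperm-methylated tiles and 33.9% over the 416. None of the 416 was below 10%, 24 lay between 10% and 20%, 95 between 20% and 30%, and 297 between 30% and 40%. The next class, from 40% to 50%, held 656 tiles. The tiles just inside the limit, chr1:36327901-36328000, chr5:53599501-53599600 and chr7:34389001-34389100, had zygote means of 39.97%, 39.95% and 39.92%. The tiles just outside it, chr5:145352201-145352300, chr11:115935601-115935700 and chr1:179421501-179421600, had 40.00%, 40.03% and 40.04%. No tile had 0 methylated counts in all 4 zygote libraries.

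A low zygote mean seldom meant a low level in every zygote library. Only 11 of the 416 tiles (2.64%) were below 40% in all 4 zygote libraries, 154 were so in 3 of them, 224 in 2 and 27 in 1. In 369 tiles (88.7%) at least 1 zygote library was at 50% or more. For 75 tiles (18.03%), the pooled zygote counts had an exact Clopper-Pearson 95% upper bound under 40%, an interval that covers counting error only. The counts were modest, with a median of 15 to 22 per tile in the zygote libraries and 16 to 19.5 in the blastocyst libraries. Neighbouring positions are covered by the same reads, and the median of the highest count at any 1 position of a tile was 10 to 16 in the zygote libraries.

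The name "already low in zygotes" was therefore checked in libraries that did not choose the tiles. Among the 4778 sperm-methylated tiles, 703 had a mean below 40% over the WT and CKO zygote libraries of replicate 1. Those tiles averaged 28.4% in the libraries that chose them and 58.5% in the zygote libraries of replicate 2. The 4075 tiles not chosen averaged 64.3% in replicate 2. Choosing on replicate 2 gave 746 tiles at 27.8%, which read 58.2% in replicate 1, against 64.5% for the 4032 others. Of the tiles chosen on replicate 1, 19.8% were also below 40% in replicate 2, against 14.9% of those not chosen. The other way round, the shares were 18.6% and 14.0%. Across the 4778 tiles, which share libraries and depth, the replicates of WT zygotes correlated with r = 0.16 and those of CKO zygotes with r = 0.12 (Pearson, given as a description). The lists chosen on 1 replicate held 268 and 287 tiles of the set. For the set itself no zygote library was left unused. These values go against the name for most tiles of the lists, and the set is called here by its rule, tiles with a low zygote mean. The part of low counts in this spread was not tested.

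**Figure D1:**
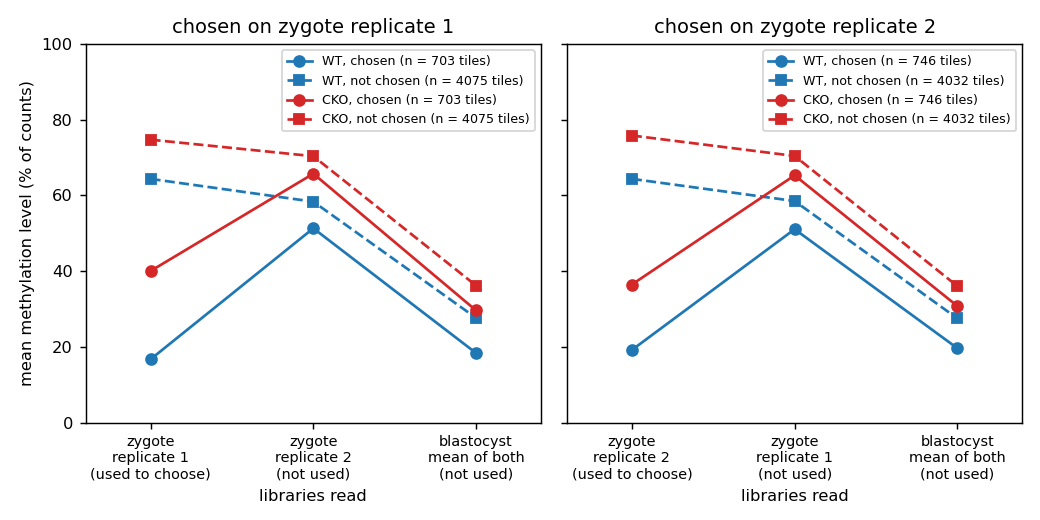
Mean methylation level (percent of counts, vertical axis) of sperm-methylated tiles chosen (circles, solid lines) or not chosen (squares, dashed lines) by a mean below 40% in the zygote libraries of 1 replicate, for WT (blue) and CKO (red); the panels choose on replicate 1 and on replicate 2. Chosen tiles rise from a mean of 28.4% or 27.8% over both genotypes in the libraries that chose them to 58.5% or 58.2% in the libraries that did not.

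In zygotes the 416 tiles were lower in WT than in CKO. Their mean was 95.4% and 95.9% in the sperm replicates, 22.4% and 22.0% in WT zygotes, and 44.2% and 41.6% in CKO zygotes. Both CKO libraries lay above both WT libraries, with 19.2 points between the nearest ones. Group means were 22.2% ± 0.322 for WT and 42.9% ± 1.81 for CKO (SD, n = 2 each), a difference of 20.7 points with an SD of 1.84. The other 4362 sperm-methylated tiles had 60.7% ± 0.00210 (WT) and 72.2% ± 0.218 (CKO) at this stage (SD, n = 2 each), a difference of 11.5 points. The rule used the sum of the 4 zygote libraries. That choice does not set the sign of the genotype difference, but it can change its size.

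In the lists chosen on 1 replicate and read in the other, the genotype difference was smaller than in the set. Tiles chosen on replicate 1 were at 51.3% in the WT and 65.7% in the CKO zygote library of replicate 2, 14.4 points apart, against 12.01 points in the tiles not chosen. Tiles chosen on replicate 2 were 14.2 points apart in replicate 1, against 11.9 points in the others. CKO thus stayed above WT in libraries that did not choose the tiles, by fewer points than the 20.7 of the set itself. With 2 libraries against 2, an exact two-sided permutation test cannot go below 0.333, and no p was computed for means over chosen tiles.

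Tiles without a methylated count were more numerous in the WT than in the CKO zygote libraries. In the WT zygote libraries, 166 and 159 of the 416 tiles had no methylated count, against 43 and 60 in the CKO libraries. Levels of 50% or more were found in 74 and 69 tiles in WT and in 195 and 184 tiles in CKO. In both WT libraries at once, 61 tiles (14.7%) had 0 methylated counts, and in both CKO libraries 3 tiles (0.721%). The 3 were chr4:152798701-152798800, chr8:114162801-114162900 and chr9:69193401-69193500, the first of them named after its values were seen. The shares were 0.367% and 0.0229% in the other sperm-methylated tiles. Both WT libraries were below 40% in 216 tiles and both CKO libraries in 57.

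**Figure D2:**
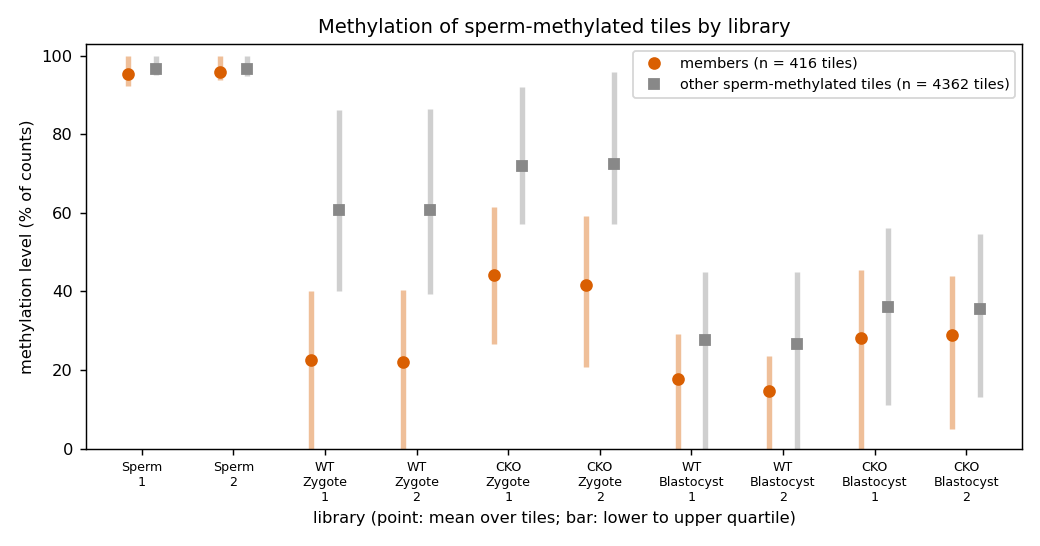
Methylation level (percent of counts, vertical axis) by library for the 416 tiles with a low zygote mean, called members in the legend (orange circles), and the other 4362 sperm-methylated tiles (grey squares); points are means over tiles and bars run from the lower to the upper quartile. The sperm and zygote libraries chose the tiles, and in the 4 blastocyst libraries, which did not, the orange means of 14.6% to 28.8% lie below the grey means of 26.7% to 36.1% of the same library.

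Tile by tile, CKO exceeded WT in zygotes in 321 of the 416 tiles and was lower in 95. The median difference was 21.1 points (quartiles 3.39 and 39.7), against 10.9 in the other sperm-methylated tiles and 0 over all tiles. In 157 tiles both CKO libraries lay above both WT libraries, and in 20 both lay below. These were 37.7% and 4.81% of the set. Over all 14506 tiles the same patterns were found in 14.0% and 4.52%, and in the other sperm-methylated tiles in 26.4% and 7.91%. No tile passed in edgeR's quasi-likelihood test with Benjamini-Hochberg adjustment over all 14506 tiles at a threshold of 0.05, among the 416 or elsewhere (0.00% called). At an unadjusted p below 0.05 there were 57 of the 416 (13.7%) against a background of 4.07% of all tiles. The share was 8.07% in the other sperm-methylated tiles. CKO was higher in 54 and lower in 3, where the background was 3.49% and 0.586%. limma also called 0, with 69 of the 416 at an unadjusted p below 0.05 and a background of 7.56%. The edgeR count of 57 fell to 29 with a common dispersion, where the count over all 14506 tiles fell from 591 to 177. Both counts also fell without WT zygote replicate 1, a fit that leaves 1 library in that group. Since the same zygote libraries chose the tiles, nothing is read from these shares.

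The tile with the smallest zygote p among those higher in CKO with no overlap was chr1:192919201-192919300, with 3 cytosine positions. It had 98.6% and 95.7% in sperm, 4.55% (3 of 66 counts) and 13.3% (6 of 45) in WT zygotes, and 68.8% (33 of 48) and 69.4% (77 of 111) in CKO zygotes. In blastocysts it read 22.2% and 3.33% in WT and 0% and 25.9% in CKO. The groups were far apart in zygotes and overlapped in blastocysts, and the zygote difference had an adjusted p of 0.519 (edgeR).

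A second such tile, chr9:77275401-77275500, was unmethylated in both WT zygote libraries (0 of 24 counts in each) and had 75.0% and 60% in CKO zygotes (72 of 96 and 48 of 80). A count of 0 of 24 allows a share of up to 12.5%, taking counts summed over 4 positions as independent, so the true limit is higher. In blastocysts its WT libraries were at 8.33% and 0%, and its CKO libraries at 0% and 57.4%, so the groups overlapped there.

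Tiles that went the other way were fewer. On chr8:114162801-114162900, the WT zygote libraries had 67.4% and 70.0% and the CKO zygote libraries 0 of 20 and 0 of 18 counts. Its blastocyst libraries read 41.7% and 0% in WT and 11.5% and 58.8% in CKO. The remaining 2 tiles named for this direction were chr1:182894701-182894800, at 88.3% and 40.0% in WT and 20.0% and 9.09% in CKO zygotes, and chr9:69193401-69193500, at 89.5% and 33.3% against 0% in both. Their adjusted p ranged from 0.718 to 0.985 (edgeR).

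In blastocysts, whose levels the rule did not use, the tiles were again lower in WT than in CKO. Their mean was 17.8% and 14.6% in the WT libraries and 28.1% and 28.8% in the CKO libraries, and 10.3 points separated the nearest libraries of the genotypes. The group means were 16.2% ± 2.29 in WT and 28.5% ± 0.483 in CKO blastocysts (SD, n = 2 each), a difference of 12.3 points with an SD of 2.34. The other sperm-methylated tiles were at 27.2% ± 0.717 and 35.9% ± 0.337 (SD, n = 2 each), a difference of 8.62 points. For tiles chosen on the zygotes of replicate 1 or 2, the blastocyst difference was 11.3 or 11.1 points, against 8.54 points in the tiles not chosen either way. Tiles unmethylated in sperm (20% or less in both libraries, 7511 tiles) were at 1.72% in WT and 1.60% in CKO blastocysts, and at 2.30% and 2.60% in zygotes.

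The set was lower than the other sperm-methylated tiles in each of the 4 blastocyst libraries. The gap was 17.8% against 27.7% and 14.6% against 26.7% in WT, and 28.1% against 36.1% and 28.8% against 35.6% in CKO. A mean blastocyst level of 20% or less was found in 189 of the 416 tiles (45.4%) and in 27.1% of the others. All 4 blastocyst libraries were at 20% or less in 49 tiles (11.8%, against 6.72%), and all 4 had 0 methylated counts in 12 (2.88%, against 1.58%). In 2 tiles, chr5:47292801-47292900 and chr11:117211501-117211600, all 4 blastocyst libraries were at 50% or more (0.481%, against 1.47%). Over the zygote classes, the WT blastocyst mean was 20.3% in the 24 tiles at 10% to 20%, 15.4% in the next class and 16.1% from 30% to 40%. It then rose through 19.1% from 40% to 50% to 46.3% in the 349 tiles at 90% or more. CKO blastocysts went from 31.9%, 28.3% and 28.3% in the 3 low classes to 45.1% in the highest.

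**Figure D3:**
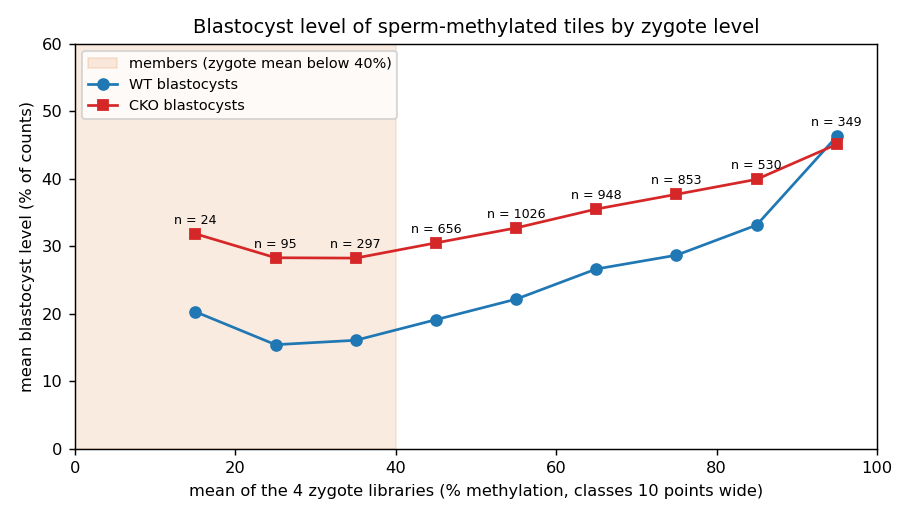
Mean blastocyst methylation level (percent of counts, vertical axis) of sperm-methylated tiles in classes of the mean of the 4 zygote libraries (percent, 10 points wide, horizontal axis), for WT (blue circles) and CKO (red squares), with the number of tiles above each class; the shaded part holds the 416 tiles below 40%. WT lies below CKO in each class up to 80% to 90% and at 46.3% against 45.1% in the highest class.

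Within the set, the blastocyst level followed the zygote level little. Across the 416 tiles, which share libraries, depth and a cut on the zygote mean, r between zygote and blastocyst level was 0.076 in WT and -0.00047 in CKO (Pearson), a description without a test. Replicates of WT blastocysts correlated with r = 0.23 and those of CKO blastocysts with r = 0.12 over the same tiles.

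Tile by tile, CKO exceeded WT blastocysts in 280 of the 416 tiles (67.3%) and was lower in 122, and the median difference was 13.0 points (quartiles -3.26 and 28.2). Both CKO libraries lay above both WT libraries in 128 tiles (30.8%) and below in 32 (7.69%). The background over all 14506 tiles was 13.0% above and 6.02% below, and in the other sperm-methylated tiles the shares were 26.2% and 10.3%. In 45 tiles (10.8%) CKO lay above WT without overlap at both stages, and in 2 (0.481%) it lay below at both. In the other sperm-methylated tiles these shares were 7.84% and 0.894%. The zygote part of this pattern was read in the libraries that chose the set. The 2 tiles with CKO below at both stages, named after their values were seen, were chr5:125697701-125697800 and chr7:37058801-37058900. The chromosome 7 tile read 33.3% and 30.4% in WT against 3.85% and 11.1% in CKO zygotes, and 41.2% and 38.9% against 15.4% and 22.7% in blastocysts. The edgeR test called 0 of the 416 tiles and 0.00% of all tiles. At an unadjusted p below 0.05 there were 29 of the 416, against 2.63% of all tiles. CKO was higher in 27 and lower in 2, with a background of 2.19% and 0.441%. limma called 0, with 47 at an unadjusted p below 0.05 against a background of 6.34%. The edgeR count of 29 fell when WT blastocyst replicate 1 or 2 or CKO blastocyst replicate 1 was left out. The count over all tiles fell in the same fits, which leave 1 library in a group. With a common dispersion the count of the set was 15, where the count over all 14506 tiles fell from 382 to 163. Among the other sperm-methylated tiles 5.50% had such a p, against 6.97% of the set.

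The smallest blastocyst p among tiles higher in CKO belonged to chr19:27222101-27222200, with 3 positions. It had 95.2% and 90.2% in sperm, 16.7% and 61.1% in WT zygotes, and 0% and 36.5% in CKO zygotes. In blastocysts it had 0 of 45 and 0 of 21 counts in WT and 46.2% (18 of 39) and 87.5% (42 of 48) in CKO. The genotypes overlapped in zygotes and did not in blastocysts, with an adjusted p of 1 (edgeR).

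This tile adjoins chr19:27222001-27222100, also in the set, and the same reads can count in both. The same blastocyst pattern was seen on chr2:130014301-130014400, where WT had 0 of 36 and 0 of 48 counts and CKO 30.6% and 72.2%, and on chr8:23353901-23354000, where WT had 0 of 10 and 0 of 44 and CKO 85.7% and 25%. In zygotes the first read 50.0% and 0% in WT and 56.2% and 20.0% in CKO, and the other 29.2% and 22.2% in WT and 0% and 75.0% in CKO. At both, the zygote groups overlapped.

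Among tiles lower in CKO blastocysts, chr7:53986201-53986300 had 62.1% and 22.2% in WT and 4.17% and 7.41% in CKO. In zygotes it went the opposite way, with 20.8% and 0% in WT and 65.4% and 56.5% in CKO. The single-position tile chr8:24525101-24525200 had 28.6% and 100% in WT blastocysts and 0% in both CKO blastocyst libraries, from only 6 to 19 counts per library. It had 0% and 16.7% in WT zygotes and 100% and 13.3% in CKO zygotes.

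A change of the genotype difference from one stage to the next was tested as an interaction. Over the 416 tiles it went from 20.7 points in zygotes to 12.3 points in blastocysts, a change of -8.38 points with an SD of 2.98, of which the zygote value was read in the libraries that chose the tiles. In the other sperm-methylated tiles the change was -2.90 points (SD 0.821). For this change edgeR called 0 of the 416 tiles and 1 of all 14506 (0.00689%). At an unadjusted p below 0.05 there were 16 of the 416 (3.85%), with a background of 2.14% over all tiles and 4.52% in the other sperm-methylated tiles. CKO minus WT was higher in blastocysts than in zygotes in 7 of them and lower in 9, with a background of 1.03% and 1.11%. Here limma called 0, with 34 at an unadjusted p below 0.05 against 5.52%. The edgeR count of 16 fell to 6 with a common dispersion, where the count over all 14506 tiles fell from 310 to 123. Both counts rose without CKO zygote replicate 1 and fell without CKO blastocyst replicate 2, fits that leave 1 library in a group. The smallest p among the 416 was at chr7:72571401-72571500, with 3 positions. It had 0 of 6 and 0 of 69 counts in WT zygotes, 0 of 12 and 45 of 45 in CKO zygotes, 35.2% and 46.7% in WT blastocysts and 0% and 5.13% in CKO blastocysts. Its 2 CKO zygote libraries were at 0% and 100%. The adjusted p was 0.268 (edgeR). Without CKO zygote replicate 1, the library at 0%, it was 0.0207, but CKO zygotes are then the 1 library at 100%, which the fit assumes to vary like the other groups.

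From zygote to blastocyst, the mean of the 416 tiles fell by 6.01 points in WT (SD 2.31) and by 14.4 points in CKO (SD 1.87), while the other sperm-methylated tiles fell by 33.4 and 36.3 points. The zygote level chose the tiles, so these falls are descriptions. Read in the zygote libraries that did not choose them, the tiles chosen on replicate 1 fell by 33.0 points in WT and 36.1 points in CKO, against 30.7 and 34.2 points in the tiles not chosen. For replicate 2 the falls were 31.4 and 34.5 points, against 31.0 and 34.4 points. The blastocyst mean was above the zygote mean in 145 tiles in WT (34.9%) and 110 in CKO (26.4%). In the other sperm-methylated tiles the shares were 10.7% and 8.83%, and the cut on the zygote mean enters this comparison. edgeR called 0 of the 416 tiles in WT and 0 in CKO, where 0.200% and 0.407% of all tiles were called. At an unadjusted p below 0.05 there were 16 in WT (2 higher and 14 lower in blastocysts) and 35 in CKO (0 and 35), and limma called 0 in both, with 25 and 48 at an unadjusted p below 0.05. Over all tiles, edgeR gave unadjusted p below 0.05 for 9.79% in WT (0.262% higher and 9.53% lower) and for 10.5% in CKO (0.152% and 10.4%), and limma for 14.2% and 15.6% in either direction. The chromosome 7 tile at positions 72571401 to 72571500 had an adjusted p of 0.0475 in CKO (edgeR) without CKO zygote replicate 1, again with 1 CKO zygote library and the spread taken from the other groups. The number of all tiles called rested on single libraries: it fell from 29 to 1 in WT without 1 or the other WT blastocyst replicate, to 3 without WT zygote replicate 1, and to 15 and 6 without CKO blastocyst replicate 1 and 2. In CKO it fell from 59 to 1 and 5 without CKO blastocyst replicate 1 and 2, to 20 and 12 without CKO zygote replicate 1 and 2, and to 20 without 1 or the other WT blastocyst replicate. With the replicate number as a block it was 2 in WT and 26 in CKO. With a common dispersion in edgeR, and with limma, it was 0 in both. The members' unadjusted counts fell in WT without WT blastocyst replicate 1 or 2, and in CKO without CKO blastocyst replicate 1 or 2. The unadjusted counts over all tiles fell in the same fits, which leave 1 library in a group. With a common dispersion the members' counts were 10 in WT and 11 in CKO. The counts over all 14506 tiles then fell from 1420 to 645 in WT and from 1527 to 609 in CKO.

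The tiles with the most counts are given next as examples of the values behind these means. Their counts are summed over positions that can share reads, so they need not be the most precise. The deepest, chr2:171560801-171560900 with 4 positions and 1122 counts over the 10 libraries, had 99.2% and 94.8% in sperm, 7.50% (3 of 40) and 0% (0 of 76) in WT zygotes, 51.6% (64 of 124) and 50.0% (40 of 80) in CKO zygotes, 26.7% and 18.2% in WT blastocysts, and 40.6% and 37.5% in CKO blastocysts. CKO lay above WT without overlap at both stages, and its replicates differed by under 10 points in each group. The zygote difference of 47.1 points had an adjusted p of 0.597 and the blastocyst difference of 16.6 points one of 1 (edgeR).

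The next tile, chr19:26850601-26850700 with 1036 counts, had 41.3% and 2.78% in WT zygotes, 43.0% and 59.8% in CKO zygotes, 0% and 10.2% in WT blastocysts and 0% in both CKO blastocyst libraries (0 of 36 and 0 of 52). All 4 blastocyst libraries lay at 10.2% or less. A count of 0 of 52 allows up to 5.77%, taking counts summed over 4 positions as independent, so the true limit is higher. Both CKO blastocyst libraries together had 22 counts at each of these positions. The third, chr7:52248301-52248400 with 872 counts, had 29.5% and 13.2% in WT against 56.0% and 59.8% in CKO zygotes, and the opposite order in blastocysts, with 45.2% and 30.7% in WT against 10.5% and 15.3% in CKO. The groups did not overlap at either stage, and the change of the difference had an adjusted p of 1 (edgeR).

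The other 3 of the 6 deepest tiles had 672 to 679 counts. The tile chr9:96588101-96588200 read 78.7% (37 of 47) and 0% (0 of 52) for WT zygotes against 0% (0 of 16) and 56.0% (42 of 75) for CKO zygotes. Its blastocyst replicates were close, at 12.5% in both WT and 24.1% and 23.9% in CKO. The tile chr19:27222001-27222100 had 10.9% and 10.0% in WT and 75.0% and 36.4% in CKO zygotes, and 31.7% and 42.6% in WT and 42.2% and 32.1% in CKO blastocysts. The tile chr10:69772101-69772200 had 50.0% and 55.6% in WT and 51.0% and 0% in CKO zygotes, and 35.7% and 26.7% in WT and 61.5% and 50.0% in CKO blastocysts. In 2 of these 3 tiles, 1 library of a zygote group was at 0% and the other above 50%.

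**Figure D4:**
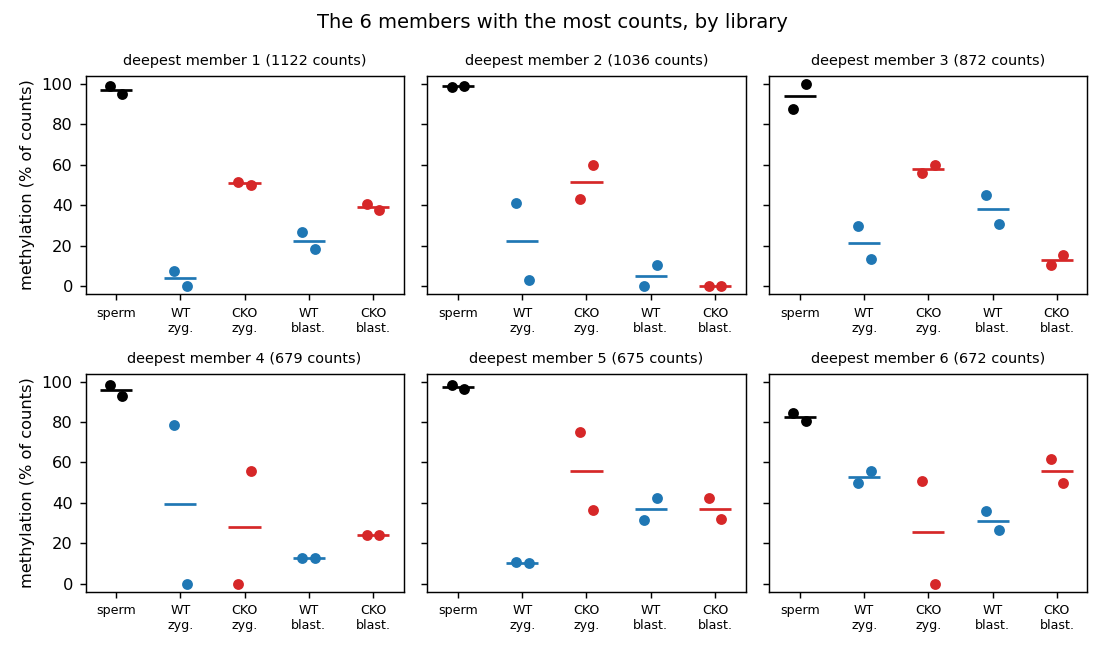
Methylation level (percent of counts, vertical axis) of the 6 tiles with the most counts in each library of the 5 groups; points are libraries and lines are group means. In the deepest tile the CKO zygote libraries (51.6% and 50.0%) stand above the WT zygote libraries (7.50% and 0%), while in the 4th each zygote genotype has a library at 0%.

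The highest blastocyst levels were reached by chr5:47292801-47292900, chr11:117211501-117211600 and chr4:128267001-128267100, with means over the 4 blastocyst libraries of 72.8%, 68.6% and 67.3%. The single-position tile on chromosome 5 had 0 of 17 and 0 of 5 counts in WT zygotes, 58.3% and 74.1% in CKO zygotes, 85.7% and 55.6% in WT blastocysts and 80.0% and 70.0% in CKO blastocysts. In WT it was thus higher in both blastocyst libraries than in both zygote libraries, from 7 and 9 blastocyst counts. The chromosome 11 tile had 41.2%, 41.7%, 50.0% and 25% in the 4 zygote libraries and 50.0% to 83.3% in the blastocyst libraries. The chromosome 4 tile differed widely between replicates. It had 100% (9 of 9) and 17.6% (16 of 91) in WT blastocysts, and 96.8% (30 of 31) and 54.9% (28 of 51) in CKO blastocysts.

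The number of cytosine positions, which the rule did not use, was compared next. The 416 tiles held a mean of 1.94 cytosine positions (median 2, at most 8) against 2.02 in the others, and 41.8% against 44.1% held 1 position. Tiles with 4 or more positions were 7.93% of the set and 10.6% of the others. The 3 with the most positions, with ties broken by total count, were chr8:96872401-96872500 with 8, and chr10:69772101-69772200 and chr15:92330801-92330900 with 6. Other tiles of the set also held 6, such as chr1:36327901-36328000. The first had 20 of 20 and 22 of 22 counts methylated in sperm and 0%, 40.0%, 10.0% and 0% in the zygote libraries, from 6 to 10 counts each. These values rest on 2 positions, 96872446 and 96872477, since the other 6 had counts only in WT blastocysts. In blastocysts it had 40.0% and 50.0% in WT and 27.3% and 12.5% in CKO. The chromosome 15 tile had 50.0% and 60% in WT and 29.8% and 8.70% in CKO zygotes, and 61.3% and 12% in WT and 41.9% and 66.7% in CKO blastocysts.

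The genotype difference was present at each number of positions. In the 174 tiles with 1 position it was 21.3 points in zygotes and 12.1 in blastocysts, in the 153 with 2 positions 20.1 and 13.1, in the 56 with 3 positions 23.6 and 11.2, and in the 33 with 4 or more 14.9 and 11.8. With at least 10 counts in every embryo library, 138 tiles remained, 17.7 points apart in zygotes and 12.1 in blastocysts. With at least 20 counts there were 17 tiles, at 19.0 and 8.37 points, and in the 7 tiles with at least 30 counts the differences were 30.7 points in zygotes and 0.287 points in blastocysts, where the libraries of the genotypes overlapped. Sperm levels were slightly lower in the set (95.7% ± 0.387, SD, n = 2) than in the others (96.7% ± 0.0266). Where both sperm libraries were at 100%, the 67 tiles of the set were at 17.6% in WT and 29.5% in CKO blastocysts, against 28.3% and 35.8% in the other 1005.

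The tiles were spread over all 19 autosomes, from 5.30% of the sperm-methylated tiles of chromosome 19 (8 tiles) to 13.5% of those of chromosome 7 (45 tiles). CKO exceeded WT on each of the 19 autosomes, by 7.02 to 27.0 points in zygotes and by 1.01 to 24.9 points in blastocysts. The blastocyst libraries of the genotypes overlapped on chromosomes 4 and 5. Most of the tiles stood alone. Of the 416 tiles, 386 had no other tile of the set within 1000 bp, and the other 30 formed 15 pairs of adjacent tiles, whose counts can come from the same reads. In the pair at chr1:4560801-4561000, with 1 position in each tile, the count was the same in both tiles in every library (16 and 6 in WT zygotes). Their levels were 12.5% and 0% against 56.2% and 0% in WT zygotes, and 33.3% and 50.0% in CKO zygotes in both tiles. For 17 tiles another sperm-methylated tile lay 200 to 2000 bp away. Those neighbours averaged 58.7% in WT and 71.3% in CKO zygotes, close to the 58.5% and 71.3% of the neighbours of the other sperm-methylated tiles, and 0 of the 17 tiles had a neighbour in the set. Of the 168 other sperm-methylated tiles with such a neighbour, 19 had one in the set. A tile unmethylated in sperm lay within 1000 bp of 1.92% of the set and 1.83% of the others, and within 5000 bp of 5.29% and 5.02%.

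Positions within a tile were compared by their level pooled over the 4 zygote libraries. The set held 807 cytosine positions, of which 714 had at least 20 pooled zygote counts. In the 218 tiles with 2 or more such positions, the highest and lowest position differed by a median of 10.0 points, by under 5 points in 64 tiles and by 20 points or more in 53. On chr1:192919201-192919300, WT zygotes had 18.9%, 2.70% and 2.70% of 37 counts and CKO zygotes 56.6%, 77.4% and 73.6% of 53 counts at positions 192919206, 192919214 and 192919238. Each position showed the same order of the genotypes. On chr10:69772101-69772200, position 69772143 had 0 of 32 counts in sperm and 0% in every embryo group, beside 5 positions at 88.1% to 100% in sperm. Of the 739 positions with at least 10 pooled sperm counts, 728 were at 80% or more in sperm and 3 at 20% or less.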

How the data were processed

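Reduced representation bisulfite libraries of mouse sperm, zygotes and blastocysts were analysed from the deposited Bismark coverage tables. The authors deposited, for each cytosine position, a percent methylated and the methylated and unmethylated counts it rests on. Reads were processed with Trim Galore and Bismark 0.10.1 against mm9, per the submitters' processing notes. The percent of a tile was recomputed from the deposited counts, summed over its positions. Counts summed over positions are not separate reads, so intervals and zero-count limits (3 counts) cover counting error only.

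All 14506 autosomal tiles that passed the count minimums were tested with edgeR 4.0.16 in R 4.3.3. The quasi-likelihood F-test used methylated and unmethylated counts of the 8 embryo libraries, a term for the depth of every library, and a negative binomial dispersion of 0. Spread between replicates enters through the quasi-likelihood term, whose median was 7.75 times the binomial variance. P-values were adjusted by Benjamini-Hochberg over all tiles, with a threshold of 0.05. limma 3.58.1 on log2 ratios of the counts, a common dispersion, a replicate block, other thresholds and left-out replicates were alternatives.

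Whether replicate numbers pair the samples is not known. Correlations of replicate differences between groups ranged from -0.0063 to 0.021 over the tiles, a description that does not settle it. Named tiles are the deepest, those with the most positions, the smallest p in each direction without overlap or for the interaction, the highest in blastocysts, those nearest the threshold of 40%, and the first run of neighbours. Tiles on chromosome 18 (17 of the set) were counted and not named. The members and lists were chosen with earlier results of these data known.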

Additional observations from a re-analysis of the deposited data

How the results depend on the processing

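Of 153 alternative values, 131 stayed on the same side and within the spread or count limits, 21 moved and 1 reversed. The set held 119 tiles at a zygote threshold of 30%, 1072 at 50% and 138 with at least 10 counts in every embryo library, and 452 to 456 without a sperm replicate. The zygote genotype difference was 17.3 points when zygote counts were pooled, 17.7 with at least 10 counts, 14.4 and 14.2 when read in the replicate that did not choose the tiles, and 19.4 to 22.0 without an embryo replicate. The blastocyst difference was 10.7 to 13.9 without an embryo replicate. The WT change from zygote to blastocyst reversed to 2.75 points at a threshold of 30%. It was -13.0 at 50%, -9.48 with pooled zygote percents, -10.4 with pooled counts, -33.0 and -31.4 in the replicates that did not choose, and -7.63 to -4.39 without an embryo replicate. The CKO change was -5.85 at 30%, -20.2 at 50%, -18.4 with pooled counts, -36.1 and -34.5 in the replicates that did not choose, and -15.7 to -13.1 without an embryo replicate. Thresholds and pooling change which tiles enter or how they are weighted; the cause of the other moves was not tested.

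Calls among the tiles were 0 in 86 of 90 alternatives. The exceptions were 1 call at a threshold of 50% for the stage change in WT and 1 in CKO, and 1 each for the interaction and the CKO stage change without CKO zygote replicate 1, so leaving out a replicate gave 0 to 1 calls for these, with 1 library left in that group. Not among the 90, the lists chosen on 1 zygote replicate held 1 call for the CKO stage change (replicate 1) and 2 for the WT stage change (replicate 2). With the replicate number as a block, edgeR called 0 tiles of the set in each of the 5 comparisons, as it did without the block. Whether the numbers pair the samples is not known. Left-out libraries that moved unadjusted counts by over 1.5 times are given beside those counts.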
